A study of Rattus norvegicus with 17 samples.

Results

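The genes described here encode voltage-gated sodium, calcium and potassium channels and the channel subunits named with them. They were taken by symbol: every gene whose symbol begins with Kcn followed by letters and a digit, Scn followed by a digit and a or b, or Cacna, Cacnb or Cacng. That gave 118 of the 14506 genes with a value, each represented by its probe set with the highest mean. The symbols also admit genes that are not voltage-gated channels, namely tandem-pore leak, inward rectifier and calcium-activated potassium channels, auxiliary subunits, and calcium gamma subunits, several of which are partners of AMPA receptors. The 118 genes were therefore described in 11 families.

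Transcripts were measured on 17 Affymetrix arrays of tumour tissue from 8-month-old rats of a mixed Sprague-Dawley white eye/Wistar-Kyoto strain. All rats carried mutant p27Kip1 (Cdknb1 in the labels), called homozygous in the sample labels and heterozygous in the series' design text. The 7 controls (5 female, 2 male) received polyethylene glycol (PEG) at 20 mg/kg. NVP-BEZ235, an inhibitor of PI3K and mTOR, was given at 20 mg/kg to 6 rats (4 female, 2 male) and at 30 mg/kg to 4 (3 female, 1 male). The length of treatment is not given in the sources used here, and the field for the treatment protocol holds no treatment. No label states whether samples came from different animals, and p-values here reflect the scatter among the samples given.

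The tissue is labelled pituitary adenoma, whereas pheochromocytoma, which arises from chromaffin cells of the adrenal medulla, is named in the series title. Of 7 pituitary hormone genes, 1 lay above the array median, against 7 of 7 chromaffin markers and 9 of 10 adrenal cortex markers. Dose and sample number lie together: the titles number the 30 mg/kg samples 1 to 4, the 20 mg/kg samples 5 to 10 and the controls 1 to 7. Channel genes that passed against control are therefore given over all controls and within their dose's own run of numbers, against controls 1 to 4 or controls 5 to 7; the labels do not say what the numbers mark. Replicates 3 and 4 at 30 mg/kg stood apart in Slc18a1, a vesicular monoamine transporter of chromaffin cells, which was at 7.51 and 8.37 there against 9.44 to 10.5 (log2) in the other 15 libraries. Channel genes that passed at 30 mg/kg are given with and without these libraries.

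Chromaffin cells fire action potentials. Sodium and calcium channels carry the inward current, and calcium entry through L-, P/Q- and N-type channels triggers release of catecholamines. Large-conductance (BK) and small-conductance (SK) calcium-activated potassium channels, M-type and ERG-type potassium channels then repolarize the membrane and set the firing rate, and acid-sensitive tandem-pore channels hold the resting potential. Auxiliary subunits shape how the pore subunits open, inactivate and reach the surface.

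Against the arrays' own scale, 51 of the 118 channel genes (43.2%) had a mean above the array median of 5.02 (log2), compared with 60.1% of all genes. Of these, 16 also exceeded the upper quartile of 6.98. In 33 genes the value lay above the median of every one of the 17 arrays, in 42 above that of none, and in 43 above that of some. The last gene above the median was Kcnd3, a subunit of A-type potassium channels, at 5.09, and the first below it was Kcnb2, a delayed rectifier subunit, at 5.01. Levels of different genes come from different probes and are compared here with the array's quantiles, not with each other.

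Of 45 genes listed for chromaffin cell excitability, 38 had a value and 25 lay above the array median. Among sodium channel pores these were Scn3a (6.16 ± 0.56, SD, n = 17), Scn8a (5.51 ± 0.31) and Scn2a (5.32 ± 0.61). The sodium beta subunit Scn3b averaged 7.28 ± 0.87.

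The calcium channel pores above the median came from the L, T, P/Q and N classes. The L-type pore Cacna1d (7.42 ± 0.27) and the T-type pore Cacna1h (7.32 ± 0.75) exceeded the upper quartile, and the P/Q-type pore Cacna1a (6.19 ± 0.34), the N-type pore Cacna1b (5.82 ± 0.24) and the L-type pore Cacna1c (5.52 ± 0.57) exceeded the median. Their partners Cacna2d1 (8.86 ± 0.37), an alpha2delta subunit that binds gabapentin, and Cacnb2 (7.48 ± 0.26), a beta subunit that carries pores to the surface, exceeded the upper quartile as well.

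On the potassium side, the BK pore Kcnma1 (8.75 ± 0.44), its inactivating subunit Kcnmb2 (8.68 ± 1.16), the SK pore Kcnn3 (8.80 ± 0.49), the M-type subunit Kcnq3 (7.61 ± 0.81) and the ERG-type pore Kcnh2 (7.01 ± 0.45) exceeded the upper quartile. So did 3 tandem-pore genes: the acid-sensitive channels Kcnk9 (9.85 ± 0.49) and Kcnk3 (8.07 ± 0.46) and the stretch- and lipid-sensitive channel Kcnk2 (7.60 ± 0.87). Kcnk9 had the highest mean of the 118. Kcnk3 and Kcnk9 are also channels of the aldosterone-producing zona glomerulosa, and adrenal cortex markers were present in every library, so the cell type behind these levels was not tested. In bulk tissue, fewer cells of a type and less RNA per cell cannot be told apart.

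**Figure D1:**
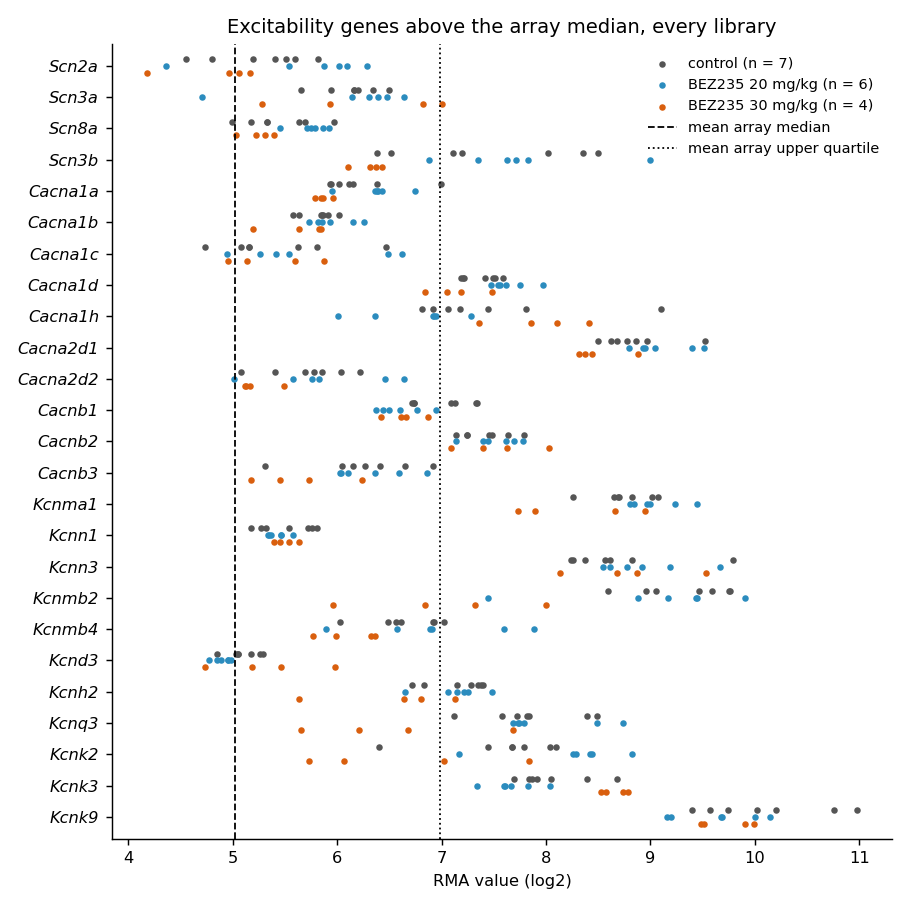
RMA values (log2, horizontal axis) of the 25 excitability genes above the array median in every library, 1 point per library: 7 controls, 6 at 20 mg/kg and 4 at 30 mg/kg. Dashed and dotted lines mark the mean array median (5.02) and upper quartile (6.98); the 30 mg/kg points of Kcnmb2, from 5.96 to 8.00, lie below all controls.

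By family, the share above the array median ran from 10 of 35 voltage-gated potassium pore genes to 3 of 4 calcium beta genes. It was 6 of 11 for tandem-pore channels, 4 of 6 for calcium- or sodium-activated potassium channels, 6 of 16 for potassium auxiliary subunits and 6 of 15 for inward rectifiers. It was 4 of 8 for sodium pores, 1 of 3 for sodium beta subunits, 5 of 9 for calcium pores, 2 of 3 for alpha2delta and 4 of 8 for gamma subunits. None of the 15 inward rectifier genes exceeded the upper quartile.

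The spread of a channel gene over the 17 arrays, with a median SD of 0.29, was close to that of all genes, 0.29. It was uneven within the set: 52 genes ranged over less than 1 log2 unit, and 23 over more than 2, of which 17 were above the array median. Kcnmb2 and Kcnip1, a calcium-sensing partner of A-type channels, had SDs of 1.16 and 1.31.

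At 20 mg/kg no channel gene passed the test over all controls, where 1.18% of all genes did (limma, Benjamini-Hochberg over 14506 genes, adjusted p under 0.05). At an unadjusted p under 0.05 there were 16, or 13.6% against 17.4% of all genes. The largest estimates among the genes above the median were 0.67 ± 0.24 (SE) for Scn7a, a sodium-sensing relative of the sodium channels (adjusted p = 0.158), 0.67 ± 0.32 for Kcnk2 (0.30) and -0.70 ± 0.27 for Cacna1h (0.194). Within numbers 5 to 10 alone these were 0.75 ± 0.23 (0.15), 0.26 ± 0.23 (0.641) and -0.45 ± 0.15 (0.17). The excitability genes had a median change of 0.02, and all genes one of -0.01.

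Scn7a was higher at 20 mg/kg than in every control of its own numbers: 7.41 to 8.54, with a median of 7.93, against 7.25, 7.12 and 7.31 in controls 5 to 7. The difference of means was 0.78 (exact permutation p = 0.0357, two-sided; adjusted over the 41 genes described by name, 0.732). With 6 against 3 samples the smallest p possible is 0.0119. In all, 3 of the 118 genes did not overlap between these groups (6.11% of all genes). Scn7a and the SK pore Kcnn1 were higher (3.22% of all genes), and Kcnc2 was lower (2.9%). Kcnn1 was at 5.34 to 5.57 at 20 mg/kg, against 5.32, 5.27 and 5.17 in controls 5 to 7. In controls 1 to 4 it was at 5.54 to 5.80. Kcnc2 was at 4.08 to 4.64 at 20 mg/kg, against 5.05, 4.83 and 5.02 in controls 5 to 7. In controls 1 to 4 it was at 4.33 to 4.75. Kcnc2, a fast delayed rectifier subunit picked out here by its result, was also the gene that passed the test among numbers 5 to 10 alone (1.19% of all genes).

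At 30 mg/kg 11 of the 118 channel genes passed the test over all controls (9.32%), close to the 8.55% of all genes: 8 fell (4.89% of all genes) and 3 rose (3.66%). The genes that fell were Kcnmb2, Kcnq3, Cacng3, Scn3b, Scn2b, Kcnab1, Kcnj11 and Kcnh6, and those that rose were Kcnh1, Kcnj8 and Kcnk3. In the excitability list 5 of 38 fell, 1 rose and the median change was -0.35. The 51 genes above the array median had a median change of -0.31, against -0.03 for all genes above it. Within numbers 1 to 4 alone these 2 medians were -0.26 and 0.01, and no channel gene passed by limma (0.11% of all genes), with 13 at an unadjusted p under 0.05 (9.49% of all genes). The only male in that run is replicate 4 at 30 mg/kg, and the sex term takes up its library. All limma estimates within numbers 1 to 4 alone therefore compare the 3 female 30 mg/kg libraries with controls 1 to 4.

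Kcnmb2 showed the largest change. It was at 8.00, 7.32, 6.84 and 5.96 in the 30 mg/kg libraries, at 8.59, 9.59, 9.75 and 9.06 in controls 1 to 4, and at 9.76, 8.95 and 9.46 in controls 5 to 7. The 30 mg/kg libraries thus lay below all 7 controls, as they did for 2.01% of all genes. The fall was 2.31 ± 0.33 on the log2 scale, 4.96-fold (adjusted p = 0.000596).

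The fall of Kcnmb2 was 1.93 ± 0.34 with the run of title numbers as a term (adjusted p = 0.00754), 1.96 ± 0.30 in females (0.00732) and 1.85 ± 0.42 without replicates 3 and 4 at 30 mg/kg (0.0451). It passed in 29 of 31 alternatives, with adjusted p from 0.00019 to 0.124. Within numbers 1 to 4 alone, where the sex term takes up replicate 4 at 30 mg/kg, the estimate was -1.86 ± 0.35 and did not pass (0.124). At 20 mg/kg Kcnmb2 was at 7.45 to 9.91 with a median of 9.31, its lowest value being that of replicate 10, and the change was -0.22 ± 0.29 over all controls (0.735) and -0.70 ± 0.31 within numbers 5 to 10 alone (0.297).

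The other BK genes changed less. The pore Kcnma1 was at 8.95, 8.66, 7.73 and 7.89 at 30 mg/kg and at 8.26 to 9.07 (median 8.70) in controls, a change of -0.44 ± 0.21 (adjusted p = 0.21). Its 2 low values were those of replicates 3 and 4, without which the estimate was 0.05 ± 0.21 (0.946). Kcnmb4, the BK subunit of neurons, changed by -0.56 ± 0.26 (0.198).

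The 250 bases upstream of the annotated starts of Kcnmb2, Kcnma1 and Kcnh1, the gene that rose most, are shown from RefSeq (GRCr8). They were chosen because Kcnmb2 and Kcnma1 differ there in base composition. Capitals mark CG dinucleotides. Kcnmb2 (chr2:116599049-116599298, plus strand) holds 5, Kcnma1 (chr15:351675-351924, plus strand) 33, and Kcnh1 (chr13:106252966-106253215, plus strand) 24.
Kcnmb2: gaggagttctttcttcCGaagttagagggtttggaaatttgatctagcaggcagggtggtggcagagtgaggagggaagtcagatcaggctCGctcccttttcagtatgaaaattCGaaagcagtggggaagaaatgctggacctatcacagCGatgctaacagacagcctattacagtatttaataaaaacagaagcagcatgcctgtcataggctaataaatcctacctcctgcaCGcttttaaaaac
Kcnma1: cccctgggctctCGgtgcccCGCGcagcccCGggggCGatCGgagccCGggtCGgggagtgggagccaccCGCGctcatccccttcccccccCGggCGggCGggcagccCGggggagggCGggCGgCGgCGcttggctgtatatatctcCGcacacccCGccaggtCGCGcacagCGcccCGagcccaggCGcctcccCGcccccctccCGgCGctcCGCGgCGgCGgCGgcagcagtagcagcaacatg
Kcnh1: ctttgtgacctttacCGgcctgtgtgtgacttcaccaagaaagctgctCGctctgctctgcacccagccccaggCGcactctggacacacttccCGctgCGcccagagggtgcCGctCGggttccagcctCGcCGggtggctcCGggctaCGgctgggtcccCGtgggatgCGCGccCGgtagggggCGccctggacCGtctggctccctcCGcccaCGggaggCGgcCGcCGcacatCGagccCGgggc

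In windows of 300 bases, which add 50 bases past the start, 83 of the 118 genes were matched. The BK pore Kcnma1 held 38 CG dinucleotides there. The BK subunits varied: Kcnmb1 held 6, Kcnmb2 7, Kcnmb3 2 and Kcnmb4 48. The median was 22 CG dinucleotides for the 38 channel genes above the array median and 11 for the 45 not above it. For all genes tested the medians were 22 (7287 genes) and 5 (4681 genes). The forkhead motif of FOXO factors, GTAAACA, and the cyclic AMP response element, TGACGTCA, searched on both strands, were each in 0 of the 83 windows and in 3.76% and 1.91% of all windows. A piece of the REST site, TTCAGCACC, was in 2, those of Cacng3 and Kcnh6, and in 0.379% of all windows, and the other piece of that site was in 0 and 0.149%.

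Among the potassium channel pores, Kcnq3, a subunit of the M current that restrains repetitive firing, fell by 1.28 ± 0.32 (adjusted p = 0.0207). It was at 7.69, 6.21, 5.65 and 6.68 at 30 mg/kg and at 7.12 to 8.49 (median 7.82) in controls. Replicate 1 lay among the controls and the other three below all of them. The estimate was -1.27 ± 0.38 with the title numbers as a term (0.0855), -1.24 ± 0.48 within numbers 1 to 4 alone (0.463) and -0.81 ± 0.39 without replicates 3 and 4 (0.362).

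Kcnh6, a member of the ERG family, fell by 0.68 ± 0.18 (adjusted p = 0.0271). Its 30 mg/kg values of 5.60, 5.08, 5.15 and 5.30 lay below the 6.04, 6.04, 6.50 and 5.92 of controls 1 to 4, but not below all of controls 5 to 7 (5.58, 5.56 and 6.05). The estimate was -0.85 ± 0.20 within numbers 1 to 4 alone (0.213) and -0.74 ± 0.24 without replicates 3 and 4 (0.153), and neither passed. Its relative Kcnh2 had a change of -0.62 ± 0.20 (0.0587). At 30 mg/kg it was at 6.80, 7.12, 6.64 and 5.63, below the 7.15 to 7.40 of controls 1 to 4. These values were not below all of controls 5 to 7 (6.71, 7.38 and 6.83). Without replicates 3 and 4 the estimate for Kcnh2 was -0.25 ± 0.21 (0.657).

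Kcnh1, the pore of an ether-a-go-go channel, rose. It was at 6.12, 6.01, 6.49 and 6.48 at 30 mg/kg, at 5.34, 4.48, 5.10 and 3.79 in controls 1 to 4, and at 5.56, 5.27 and 4.85 in controls 5 to 7. The 30 mg/kg libraries lay above all 7 controls, as for 1.75% of all genes, and above the 6 libraries at 20 mg/kg (4.94 to 5.63). The rise was 1.37 ± 0.26, 2.58-fold (adjusted p = 0.00414), and 1.61 ± 0.28 with the title numbers as a term (0.00754). It held when each library was left out in turn, but did not pass without replicates 3 and 4 together (1.18 ± 0.35, 0.112) or within numbers 1 to 4 alone (1.53 ± 0.35, 0.205).

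Kcnab1, a cytoplasmic beta subunit of Shaker-type channels, fell by 1.01 ± 0.27 (adjusted p = 0.0278). It was at 6.11, 5.44, 5.39 and 5.62 at 30 mg/kg, against 6.08 to 7.34 (median 6.46) in controls. The groups overlapped by replicate 1. Kcnab1 did not pass within numbers 1 to 4 alone (-0.78 ± 0.26, 0.381) or without replicates 3 and 4 (-0.84 ± 0.37, 0.311). Kcnip1 was at 7.78, 4.58, 4.48 and 4.27 at 30 mg/kg and at 4.79 to 7.70 in controls, so that replicate 1 exceeded every control and the other three lay below every control. Its change was -1.35 ± 0.61 (0.185), and -0.73 ± 0.80 without replicates 3 and 4 (0.756).

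Of the 3 sodium beta subunits, which are partners of sodium channel pores, 2 fell. Scn3b was at 6.37, 6.32, 6.43 and 6.11, with controls 1 to 4 at 6.52, 6.38, 7.20 and 8.02 and controls 5 to 7 at 7.11, 8.35 and 8.50. The fall was 1.10 ± 0.33 (adjusted p = 0.0433), and it passed in 13 of 31 alternatives, with adjusted p up to 0.641. It was -0.66 ± 0.36 within numbers 1 to 4 alone (0.641) and -0.77 ± 0.39 without replicates 3 and 4 (0.40). Scn2b was at 4.53, 4.47, 4.24 and 3.84, below controls 1 to 4 (5.83, 6.51, 5.75 and 4.61) and, among controls 5 to 7 (5.32, 4.83 and 4.12), below the first pair.

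The fall of Scn2b was 1.04 ± 0.28 (adjusted p = 0.0275) and, with the title numbers as a term, 1.31 ± 0.30 (0.0282). Without replicates 3 and 4 the estimate was -0.96 ± 0.38 (0.255) and within numbers 1 to 4 alone -1.26 ± 0.38 (0.332), and neither passed. Its values at 30 mg/kg were all under the array median. No sodium pore gene passed (0 at an unadjusted p under 0.05): the changes of the 8 ran from -0.51 to 0.12.

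No calcium pore, alpha2delta or beta gene passed at 30 mg/kg by limma; at an unadjusted p under 0.05 there were 1, 0 and 2. The changes of the 9 pore genes ran from -0.36 to 0.43, with -0.24 ± 0.13 for Cacna1d and 0.43 ± 0.30 for Cacna1h, or -0.07 ± 0.16 and 0.17 ± 0.40 without replicates 3 and 4. The 3 alpha2delta genes lay between -0.50 and -0.33 and the 4 beta genes between -0.60 and 0.10. Among the gamma genes, Cacng3 fell by 1.29 ± 0.37 (adjusted p = 0.0376): it was at 5.64, 5.10, 4.19 and 4.68 against 5.36 to 6.80 (median 6.09) in controls, with replicate 1 among them. Cacng3 did not pass within numbers 1 to 4 alone (-1.14 ± 0.40, 0.398) or without replicates 3 and 4 (-0.90 ± 0.47, 0.414). Cacng5 was at 8.30, 6.05, 5.68 and 6.84 against 6.94 to 8.78, a change of -1.20 ± 0.39 (0.0645).

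Of the inward rectifiers, Kcnj11 and Kcnj8, the pores of ATP-sensitive potassium channels, changed in opposite directions. Kcnj11, the pore in neuroendocrine cells, fell by 0.74 ± 0.20 (adjusted p = 0.027), with values of 4.97, 4.24, 4.09 and 4.11 against 4.54 to 5.56 (median 5.20) in controls. It did not pass within numbers 1 to 4 alone (-0.68 ± 0.27, 0.478) or without replicates 3 and 4 (-0.62 ± 0.26, 0.273). Kcnj8, the pore in pericytes and smooth muscle, rose by 1.03 ± 0.29 (0.0322), with values of 5.79, 5.23, 6.75 and 7.54 against 5.14 to 5.65. The rise rested on replicates 3 and 4: without them the estimate was 0.18 ± 0.19 (0.744), and within numbers 1 to 4 alone 0.69 ± 0.31 (0.548). Of 8 pericyte and smooth muscle markers 2, Rgs5 and Cspg4, fell and 0 rose.

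Kcnk3 rose by 0.59 ± 0.16 (adjusted p = 0.0315). Its 30 mg/kg values of 8.53, 8.57, 8.78 and 8.74 overlapped controls 1 to 4 (8.68, 8.05, 8.40 and 7.70) through control 1, and lay above controls 5 to 7 (7.92, 7.84 and 7.86). Within numbers 1 to 4 the estimate was 0.42 ± 0.23 (0.639), and without replicates 3 and 4 it was 0.41 ± 0.21 (0.411). Kcnk2 was at 7.84, 7.03, 5.74 and 6.06, a change of -0.94 ± 0.36 (0.12), or -0.25 ± 0.41 without replicates 3 and 4 (0.846). Kcnk9 was at 9.48, 9.99, 9.90 and 9.51, a change of -0.37 ± 0.28 (0.457).

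**Figure D2:**
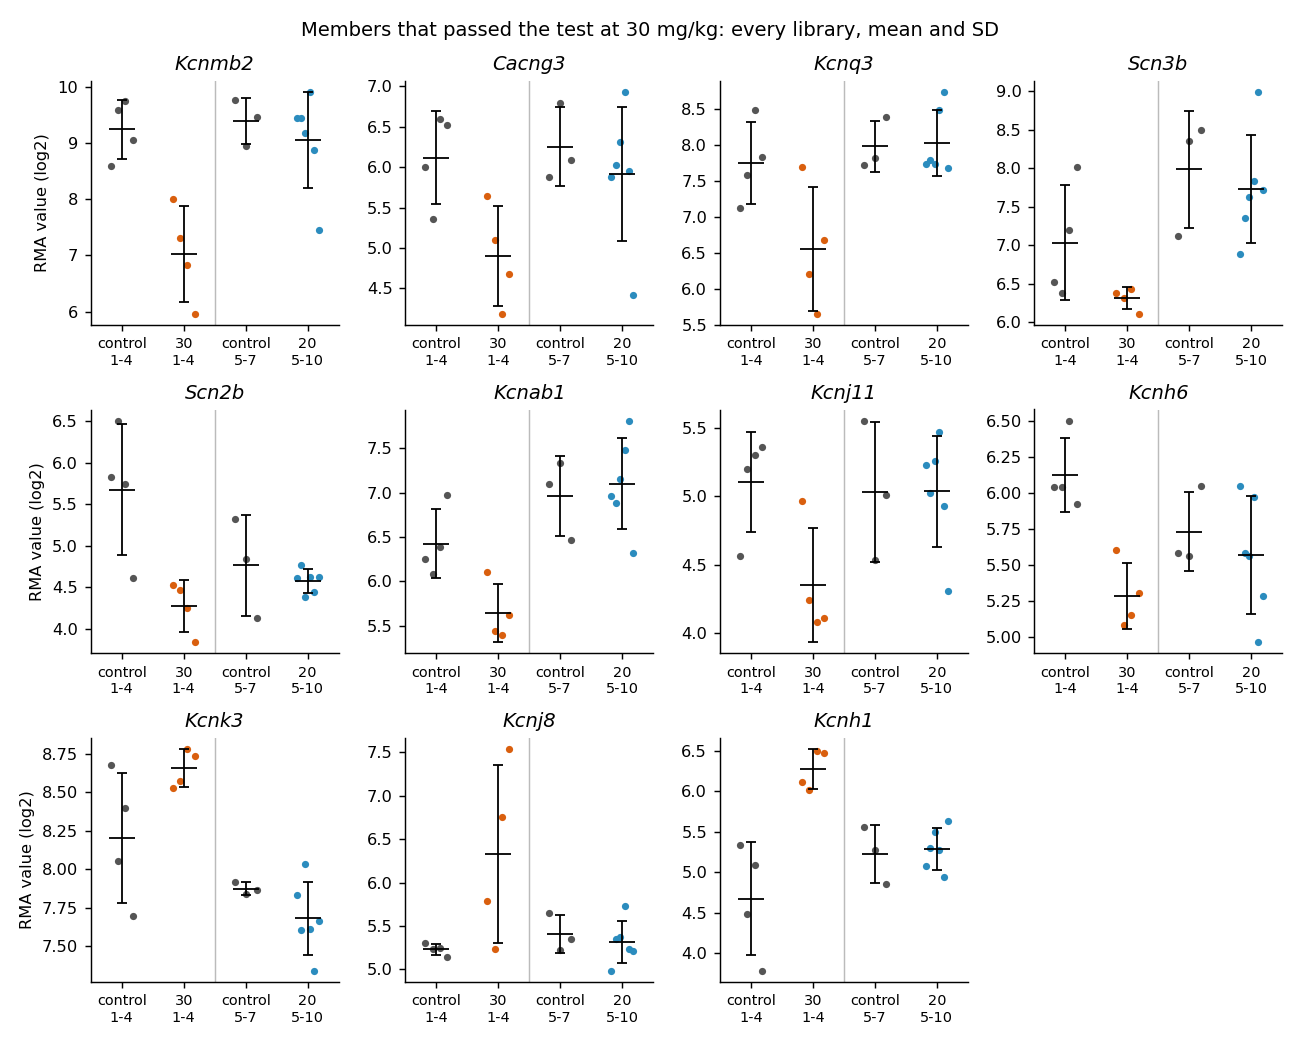
RMA values (log2, vertical axis) of the 11 genes that passed the test at 30 mg/kg, 1 point per library, with the mean and SD as bars; columns are controls 1 to 4, 30 mg/kg, controls 5 to 7 and 20 mg/kg, and the grey line parts the runs of title numbers. Kcnh1 at 30 mg/kg (6.01 to 6.49) lies above every control, and Kcnmb2 (5.96 to 8.00) below every control.

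With the run of title numbers as a term, 3 channel genes passed at 30 mg/kg (3.01% of all genes): Kcnmb2, Scn2b and Kcnh1. Of the 118 genes, Kcnmb2 alone passed without replicates 3 and 4 (1.07% of all genes), and Kcnmb2 alone in female rats (1.73%). Leaving out 1 library changed the count of 11 to 2 without replicate 3 at 30 mg/kg, 3 without replicate 4, 6 without control 6 and 5 without control 7. It became 8 without replicate 2 at 30 mg/kg and 8 without control 5, newly passing genes included. Of the 11, Kcnq3, Scn3b, Kcnab1, Cacng3, Kcnh6 and Kcnj11 no longer passed without replicate 2.

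Set against controls of the same numbers, 7 of the 118 genes did not overlap at 30 mg/kg, compared with 6.98% of all genes. Kcnmb2, Scn2b, Kcnh6, Kcnh2, Cacna1b and Kcng4 were lower (3.52% of all genes) and Kcnh1 was higher (3.46%). Cacna1b was separated narrowly, at 5.20 to 5.85 at 30 mg/kg against 5.86 to 6.02 in controls 1 to 4. Controls 5 to 7 were at 5.57, 5.85 and 5.64. Kcng4, a modulatory potassium channel subunit, was picked out here by its result. It was at 4.655 to 4.68 at 30 mg/kg and at 4.72 to 5.17 in controls 1 to 4. In controls 5 to 7 it was at 4.75, 4.49 and 4.50. Of the 7 genes, 6 were among the 41 described by name. For each of the 6, the exact permutation p was 0.0286, the smallest that 4 against 4 samples allow, and 0.195 after adjustment over the 41.

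**Figure D3:**
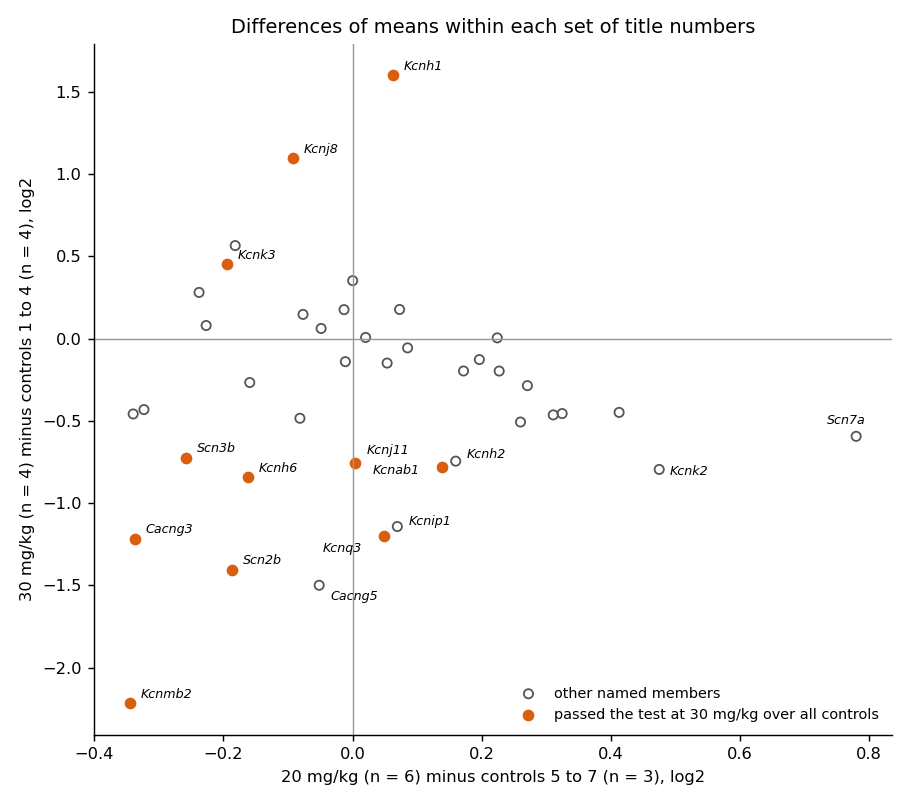
Differences of group means (log2) for the 41 genes described by name: 20 mg/kg minus controls 5 to 7 on the horizontal axis and 30 mg/kg minus controls 1 to 4 on the vertical axis, which share no library. Filled points passed the test at 30 mg/kg over all controls; Kcnmb2 is at -2.22 and Kcnh1 at 1.60 on the vertical axis, with -0.34 and 0.06 on the horizontal one.

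**Figure D4:**
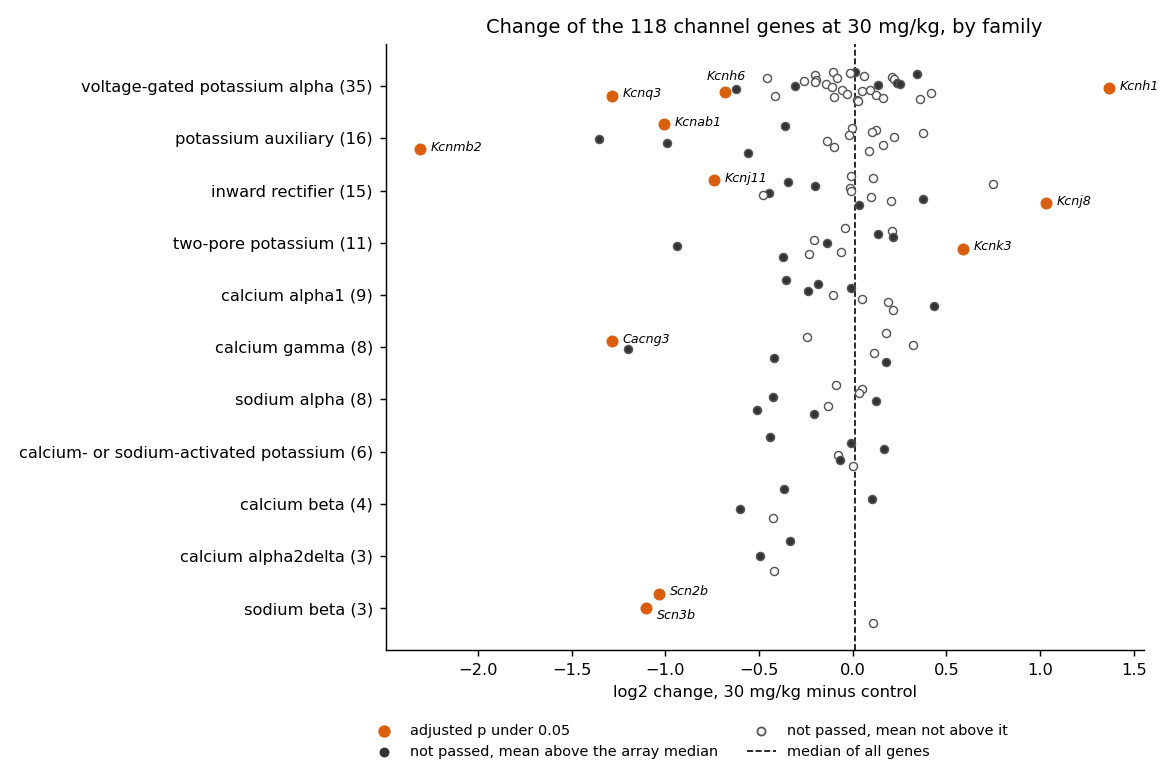
Log2 change at 30 mg/kg over all controls (horizontal axis) of all 118 channel genes by family, 1 point per gene; filled orange points passed the test, dark points have a mean above the array median, and the dashed line is the median of all genes, 0.01. The passing genes lie in 6 of the 11 families, and no sodium or calcium pore gene is among them.

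Marker genes of several cell types, chromaffin cells included, changed at 30 mg/kg, and a few changed at 20 mg/kg. The mean of 8 neuronal markers, all above the array median, was 6.45 to 7.29 at 30 mg/kg and 7.20 to 7.78 in controls 1 to 4. It was 7.53 to 7.97 at 20 mg/kg and 7.87 to 8.40 in controls 5 to 7. Of these markers, Stmn2 fell at 30 mg/kg by 1.71 ± 0.27 (adjusted p = 0.00121) and Prph by 1.76 ± 0.30 (0.0022). Of the 7 chromaffin markers, Ddc fell, by 1.95 ± 0.31 (0.00132), to 10.2, 9.04, 7.83 and 8.49. The others did not pass. Th and Dbh, enzymes of catecholamine synthesis, changed by 0.43 (0.0748) and 0.31 (0.215). Slc18a1 and Slc18a2 changed by -0.91 (0.109) and -0.24 (0.762), and Chga and Chgb by 0.01 (0.99) and 0.09 (0.622). The lowest values of Th and Dbh over the 17 libraries, 11.5 and 11.7, were those of control 5.

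Of 6 endothelial markers 3 rose and their mean was 8.21 to 8.31, against 7.47 to 8.10 in controls 1 to 4. Of the markers of blood cells, 3 of 7 for macrophages, 4 of 8 for lymphocytes and 2 of 3 for erythroid cells fell. No gene of 10 for adrenal cortex passed at 30 mg/kg. At 20 mg/kg the cortex marker Mc2r changed by -1.47 ± 0.26 (adjusted p = 0.0167). For 30 minus 20 mg/kg, Mc2r (1.03, 0.0339) and Cyp21a1 (0.968, 0.0139) were higher. With the title numbers as a term these did not pass (0.146, 0.812 and 0.857). The lymphocyte markers Ptprc (-1.15, 0.00681) and Cd2 (-0.47, 0.0272) also fell at 20 mg/kg. The part of these cell types in the channel results was not tested.

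Genes that work with the channels were read from 3 further lists. Of 41 excitability genes outside the channel families, 3 fell and 1 rose at 30 mg/kg (median change -0.01), where 4.89% of all genes fell and 3.66% rose. They were Chrna3, the nicotinic receptor subunit that receives the splanchnic nerve's signal (-1.53 ± 0.27, adjusted p = 0.0025), Trpc5, a cation channel (-1.73 ± 0.39, 0.0129), Fgf12, a sodium channel partner (-0.37 ± 0.10, 0.0318), and Gem, an inhibitor of calcium channels (2.11 ± 0.55, 0.0252). With the title numbers as a term, Chrna3 alone of these passed (0.0256).

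Of 25 calcium-handling genes 4 fell and 0 rose, beside the same 4.89% and 3.66% of all genes. They were the release channel Ryr2 (-1.19 ± 0.21, adjusted p = 0.00313), the buffer Calb1 (-1.30 ± 0.34, 0.0237) and the calcium pumps Atp2b2 (-0.74 ± 0.21, 0.0378) and Atp2b4 (-0.61 ± 0.18, 0.0496). With the title numbers as a term Ryr2 passed (0.0236), and Calb1 (0.17), Atp2b2 (0.179) and Atp2b4 (0.0938) did not. Of 5 transcription factors listed as regulators of channel genes, Hand2 fell by 1.71 ± 0.25 (0.000751). Rest, the repressor of neuronal genes, changed by 0.32 (0.109).

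Between the doses, 19 channel genes passed over all libraries (16.1%, against 12.1% of all genes): 13 were lower (8.16% of all genes) and 6 higher (3.92%) at 30 than at 20 mg/kg. Kcnmb2 was lower (-2.09 ± 0.34) and Kcnk3 higher (0.96 ± 0.17). Kcnab1, Kcnj11, Kcnq3 and Scn3b were also lower, and Kcnh1 and Kcnj8 higher. Besides these, Cacng7 (-0.99 ± 0.27), Kcnmb4 (-0.89 ± 0.27), Kcnk2 (-1.60 ± 0.38), Scn7a (-1.18 ± 0.28), Kcnma1 (-0.75 ± 0.22), Cacna2d1 (-0.58 ± 0.18), Kcng3 (-0.53 ± 0.14) and Cacna1d (-0.52 ± 0.13) were lower. Cacna1h (1.13 ± 0.31), Kcng1 (0.56 ± 0.14) and Kcne5 (0.48 ± 0.15) were higher. Kcng1 and Kcng3 are modulatory subunits of delayed rectifiers, and Kcne5 is a small membrane-spanning partner of potassium channels.

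Dose and title numbers cannot be told apart in that comparison except through the controls. With the numbers as a term, 0 channel genes and 0 of all 14506 genes (0%) passed by limma. At an unadjusted p under 0.05 there were 13 channel genes (6.69% of all genes). The term for numbers 5 to 10 against 1 to 4 was itself passed by 33 channel genes (28.0%, against 26.1% of all genes). It was passed by 14 of the 19, each with the opposite sign to the dose difference. The higher dose has numbers 1 to 4 and the lower dose 5 to 10. Opposite signs therefore mean that the 2 differences run the same way. Treated libraries enter the term for numbers, so it partly holds the dose difference itself. The shared direction is thus partly built in and is not separate evidence on dose or numbers.

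The controls alone also differed between the runs of numbers. Controls 5 to 7 did not overlap controls 1 to 4 in 29 channel genes (24.6%, against 21.4% of all genes). Of these, 22 were lower (18.6%, against 10.5% of all genes) and 7 higher (5.93%, against 10.9%). Among the 19 genes that passed between the doses, only Cacna2d1, Cacng7, Kcng1 and Kcne5 were separated in this way. Cacna2d1 was at 8.78, 8.62, 8.50 and 8.68 in controls 1 to 4 and at 8.86, 9.52 and 8.96 in controls 5 to 7. Controls 6 and 7 were also the male ones, so sex and number are not separated there. The count of 19 between the doses, newly passing genes included, became 3 without replicate 4 at 30 mg/kg, 9 without replicate 3, and 11 and 12 without 20 mg/kg replicates 6 and 8.

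With both doses together against control, no channel gene passed, where 1.48% of all genes did. At an unadjusted p under 0.05 there were 11 (9.32%, against 14.4%). With the title numbers as a term, 2 passed (4.91% of all genes): Kcnmb2, with a change of -1.34, and Scn2b, with -0.82.

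Male and female rats differed in 1 channel gene (0.241% of all genes). The L-type pore Cacna1c was 0.98 ± 0.18 higher in males (adjusted p = 0.0281). It was at 6.47 and 5.63 in the male controls and 4.73 to 5.80 in the female ones, and at 6.62 and 6.49 in males and 4.94 to 5.54 in females at 20 mg/kg. The 1 male at 30 mg/kg was at 5.87, and the females there at 4.96 to 5.60. The sexes overlapped among the controls, through control 7, and not at either dose. The response to treatment differed by sex in 0 channel genes by limma's interaction term (0.00689% of all genes), and in 9 at an unadjusted p under 0.05 (6.56%).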

How the data were processed

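The deposited values were log2 expression values of 17 arrays, made by the authors with RMA in Affymetrix Expression Console 1.3.0.187, per the submitters' processing notes, and were used as deposited. RNA was amplified with a whole-transcriptome kit, per the labels' protocols. Of 29214 probe sets, 15310 had 1 annotated symbol and 323 had several; 13581 were not listed. A symbol was represented by its probe set of highest mean, which gave 14506 genes. Of the 118 channel genes, 3 had more than 1 probe set, and 2 probe sets that pair a channel symbol with another were left out. Values ranged from 2.22 to 13.7, and array medians from 4.95 to 5.11. The number of arrays limits the precision.

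All 14506 genes were fitted in limma 3.58.1 under R 4.3.3 (lmFit, then eBayes; two-sided tests), and a gene passed at a Benjamini-Hochberg adjusted p under 0.05 over all of them. Sex was a term in each fit: the pooled doses came from a treatment fit, the single doses and their difference from a fit with 3 groups. Changes are given with their SE, levels with their SD. Differences within a run of title numbers were also tested by exact permutation, without a sex term and with all libraries of the run. In simulated data for 30 mg/kg against control with 14506 genes, 85 of 100 genes changed by 1 log2 unit, 99 of 100 changed by 2, and 11 of 14306 unchanged genes passed. The simulated scatter was independent between genes and libraries, with no sex effect and no difference between runs of title numbers. The real libraries differ by run, so these rates may not hold for them.

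The channel genes and all gene lists were chosen with earlier results of these data known. The genes given by name were those that passed a test, the 5 largest changes in each direction per comparison with control among those above the array median, the excitability genes above it, and the 5 highest means: 41 in all. The alternatives were sex (no term, or females alone), the run of title numbers (as a term, or each run alone), the replicate number as a block, trended, robust or weighted variances, quantile normalization, median centring, the mean of probe sets, filters on dim genes, other thresholds and each library left out. The fit without replicates 3 and 4 at 30 mg/kg was chosen after seeing the data.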

Additional observations from a re-analysis of the deposited data

Results flagged for a closer look

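For the 41 genes given by name, the highest or lowest library of each group of 4 to 10 was compared with its neighbour by Dixon's ratio. In 8 of 123 groups it stood apart; chance gives about 5% of groups, so a pattern among them is not read. Kcnn3 in control 6 was at 9.79, with the next control at 8.82. Kcnk2 in control 1 was at 6.41 (next 7.45), and in replicate 10 at 20 mg/kg at 7.17 (next 8.26). Scn3a in that replicate was at 4.70 (next 6.14). Kcnip1 in replicate 1 at 30 mg/kg was at 7.78 (next 4.58), and Cacna2d2 in replicate 3 at 30 mg/kg at 5.49 (next 5.16). Cacna1a in control 2 was at 6.995 (next 6.38), and Kcnj8 in control 5 at 5.65 (next 5.35).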

How the results depend on the processing

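The count of channel genes that passed at 30 mg/kg, 11, became 7 without a sex term, 3 with the run of title numbers as a term, 1 in females, 1 without replicates 3 and 4, 0 in numbers 1 to 4 alone and 2 at a threshold of 0.01; leaving out each library gave 2 to 16. For 30 against 20 mg/kg, 19 became 6 in females, 0 with the run of numbers as a term, 29 with array weights, 0 without replicates 3 and 4 (limma; 24 at an unadjusted p under 0.05), and 3 or 35 at thresholds of 0.01 or 0.10; leaving out each library gave 3 to 27. At 20 mg/kg, 0 became 1 in numbers 5 to 10 alone. For both doses, 0 became 2 with the run of numbers as a term and 1 at a threshold of 0.10; leaving out each library gave 0 to 1. With the upper quartile as the reference, 16 in place of 51 genes lay above it. Kcne5, 0.48 for 30 minus 20 mg/kg, was -0.024 with the run of numbers as a term (adjusted p = 0.988). The cause of these changes was not tested.

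With the replicate number as a block, 0 channel genes passed at 30 mg/kg (limma; 14 at an unadjusted p under 0.05). The labels do not say whether the numbers pair the samples. Deviations of libraries with the same number correlated between -0.159 and 0.023, so no pairing was seen in the values.

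Of 3686 values recomputed for genes given by name, 3401 kept their side of the threshold, and their direction where they had passed; 233 no longer passed, 51 newly passed and 1 reversed. Of values that passed in neither setting, 133 changed sign.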
